A study of Homo sapiens with 10 samples.

Results

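The genes described here are 40 genes taken as transcriptional targets of the tumour suppressor p53. They are part of 31015 genes with a counted 3′ UTR interval in 10 SLAM-seq libraries, and not all of these genes had reads. The cells were 22RV1, an established human line of castration-resistant prostate cancer. The genes were listed by name and cover feedback control of p53 (5 genes), the cell cycle (7), DNA repair and nucleotide supply (4), cell death and survival (10), metabolism and autophagy (6) and other functions (8). The cells were treated for 4 h and labelled for the last 10 min with 4-thiouridine, a uridine analogue that new transcripts take up and that reads as a T-to-C change after alkylation. The 5 groups had 2 libraries each: control cells, labelled as having no treatment; 20 µM SRPIN340, an inhibitor of the splicing kinase SRPK1; 50 µM Endovion, also labelled SCO-101, which the study examined as another SRPK1 inhibitor; THZ531, an inhibitor of the elongation kinase CDK12; and THZ531 together with Endovion, called the combination here. The dose of THZ531 is 150 nM in the series description and 100 nM in the methods of the study, and which of them applies to these libraries is not settled by the sources used here. All groups share the parental line, which is a single cell line, and no label says whether control cells received a vehicle. A read with a T-to-C conversion (T>C read) stands for nascent RNA, all reads stand for total RNA, and their ratio is the labelled share.

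p53 is a transcription factor that binds paired copies of a short DNA motif near its targets after DNA damage and other stress. Its targets stop the cell cycle, repair DNA or start cell death, and some of them, MDM2 first, switch p53 off again. CDK12 is known for keeping RNA polymerase II on long genes, many DNA repair genes among them, and SRPK1 phosphorylates the splicing factors that act on the nascent transcript. Several of the genes also answer to other transcription factors, and a change in 1 of them is not by itself a measure of p53.

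To show what the promoters look like, 1 of the paired copies of the p53 motif (called a half-site, 10 bases, searched on both strands) was looked for in 300-base RefSeq promoter windows (build GRCh38.p14, 250 bases before the start and 50 after it). Of the 40 genes 31 had such a window, and GADD45A, PHLDA3, RRM2B, TNFRSF10A, TNFRSF10B, TNFRSF10C, TNFRSF10D, TP53INP1 and TRIM22 had none in the table used. A perfect half-site was found in 3 of the 31 (9.68%) and in 1785 of all 27303 promoters (6.54%). They are shown on the strand of the gene, in the order AEN (chr15:88621296-88621325, plus strand), FDXR (chr17:74872986-74873015, minus strand) and PLK2 (chr5:58460199-58460228, minus strand), with the half-site in capitals.
AEN: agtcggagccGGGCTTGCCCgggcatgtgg
FDXR: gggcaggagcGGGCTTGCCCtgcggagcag
PLK2: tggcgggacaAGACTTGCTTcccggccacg
A pair of perfect half-sites with at most 13 bases between them was found in 8 promoters of all (0.0293%) and in 0 of the 31. Adjacent half-sites with at most 2 mismatches over 20 bases were found in 173 promoters of all (0.634%) and, of the 31, in AEN, at chr15:88621301-88621330 on the plus strand, where capitals mark the full 20 bases.
AEN: gagccGGGCTTGCCCGGGCATGTGGgagct
A match describes these letters, and many p53 sites known from other work lie outside such a window, in first introns for example.

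Each library held 19315560 to 30047897 reads and 1011598 to 1576121 T>C reads on genes. The labelled share of a whole library was 5.04% to 5.70%. All 10 prostate luminal markers checked had reads in every library, with 21 reads as the lowest count of any of them. CD3E had 0 reads, PECAM1 at most 1 and PTPRC at most 6. COL1A1 had 40 to 83 reads, above that lowest luminal count. The luminal markers summed to 2097 to 2150 CPM (read counts scaled to a common library size) in the control libraries, 2039 to 2078 with SRPIN340, 1874 to 1957 with Endovion, 1699 to 1767 with THZ531 and 1579 to 1665 with the combination, and the part of this in the results was not tested. The labels do not say that libraries of a group came from separate cultures, so a p-value measures only the spread between these libraries. Library 2 of the control group differed from library 1 by over 1.5-fold in total RNA of 7 of the 34 p53 targets with at least 100 reads in both, against 0 with THZ531, SRPIN340 or Endovion and 3 of 30 with the combination. Where a nascent or total RNA call of a p53 target against control was lost without control library 2, the log2 fold change without it is given beside the lost call. In bulk RNA, fewer cells that express a gene and less RNA per cell cannot be told apart.

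In nascent RNA 33 of the 40 genes passed the filter on low counts, and 7 did not (PLK2, PLK3, TNFRSF10C, TP53I3, SPATA18, TRIM22 and EPHA2). In total RNA 38 passed, and TNFRSF10C and TRIM22 had 0 reads in all libraries, which allows up to 3 reads in each, or 0.0998 to 0.155 CPM. A gene was called at an adjusted p under 0.05 (edgeR, quasi-likelihood test, adjusted by Benjamini-Hochberg over all genes tested). Levels are given in CPM of all reads, or for nascent RNA in CPM of T>C reads (T>C CPM). Fold changes are given on the log2 scale with their standard error (SE), and each group has n = 2 libraries. The fits were repeated 10 times, leaving out 1 library each time (leave-one-out fits). For the p53 targets, the range of log2 fold changes over them is given where a nascent or total RNA call against control was lost. A group left with 1 library is then assumed to vary like the others. All comparisons with control use the same pair of control libraries and are not independent of each other.

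MDM2, MDM4 and CDKN1A were not called in nascent or total RNA in any of the comparisons with control. In total RNA 22 other targets of the 38 tested were called in at least 1 of them, beside 39.9% of all genes tested. Whether the activity of p53 changed was not tested. Of the 22, 14 were called only as higher and 8 only as lower, beside 21.7% and 17.8% of all genes, and none was called in both directions. CCNG1 was called with all 4 treatments. In nascent RNA 7 of the 33 tested were called, all of them among the 22, beside 11.8% of all genes tested. Conversions per 100 covered T were 0.206 to 0.242 for SFN and 0.122 to 0.174 for MDM2 over the libraries. Without an unlabelled library, how many T>C reads came from sequence variants or errors was not tested. A nascent call may therefore partly repeat the change in total RNA.

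**Figure D1:**
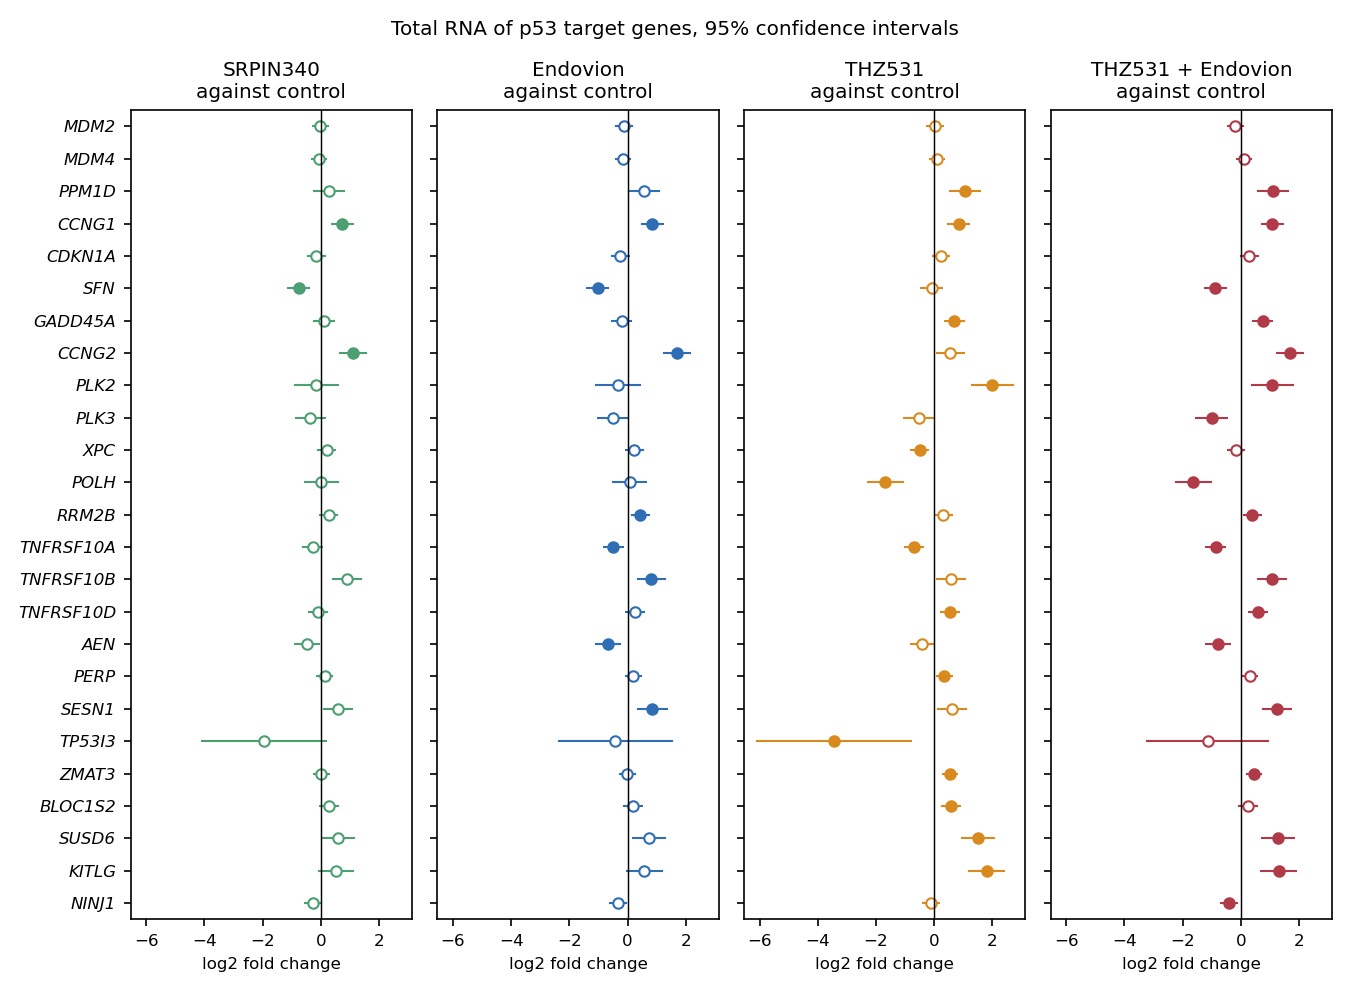
Log2 fold change of total RNA against control for the 22 p53 targets called in total RNA and for MDM2, MDM4 and CDKN1A (rows), 1 panel for each treatment. Points are edgeR estimates, bars are 95% confidence intervals, filled points have an adjusted p under 0.05 over all genes; the intervals of MDM2 and MDM4 include 0 in every panel, while CCNG1 is filled in all.

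With SRPIN340, total RNA of CCNG2 and CCNG1, a pair of unconventional cyclins of the G type, rose and that of SFN, the cell cycle inhibitor 14-3-3 sigma, fell. That is 2 genes higher and 1 lower of 38, beside 1.82% higher and 0.143% lower of all 14690 genes tested. In nascent RNA SFN was lower and no target was higher, beside 0.191% lower and 0.845% higher of all 9946 genes. The median log2 fold change of the targets was -0.04 in total RNA and -0.06 in nascent RNA, and that of all genes was 0.03 and -0.01.

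With Endovion more of them were called, as were more of all genes (1678 of 14690 in total RNA, against 288 with SRPIN340). The direct comparison of both compounds, given below, called none of the targets. Total RNA of CCNG2, CCNG1, SESN1, TNFRSF10B and RRM2B rose and that of SFN, AEN and TNFRSF10A fell, which is 5 higher and 3 lower of 38 beside 8.9% and 2.53% of all genes. In nascent RNA SFN alone was called, as lower, beside 0.623% lower and 2.04% higher of all genes. The median log2 fold change was -0.10 in total RNA and -0.15 in nascent RNA, against 0.02 and -0.01 over all genes.

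With THZ531, total RNA of PLK2, KITLG, SUSD6, PPM1D, CCNG1, GADD45A, BLOC1S2, ZMAT3, TNFRSF10D and PERP rose and that of POLH, TNFRSF10A, XPC and TP53I3 fell. That is 10 higher and 4 lower of 38, beside 16.6% higher and 14.1% lower of all genes. Nascent RNA of KITLG and GADD45A rose, 2 higher and 0 lower of 33 beside 3.86% and 3.6% of all genes. The median log2 fold change was 0.13 in total RNA and 0.04 in nascent RNA, against -0.01 and -0.02 over all genes.

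The combination gave the highest counts. In total RNA 12 genes rose and 6 fell of 38, beside 16.6% and 12.4% of all genes. The risers were CCNG2, KITLG, SUSD6, SESN1, PPM1D, PLK2, CCNG1, TNFRSF10B, GADD45A, TNFRSF10D, ZMAT3 and RRM2B, and POLH, PLK3, SFN, TNFRSF10A, AEN and NINJ1 fell. All 12 risers were also called as higher with THZ531 (8 of them) or with Endovion (5), CCNG1 with both, whereas PLK3 and NINJ1 were called as lower with the combination alone. In nascent RNA TNFRSF10B, PPM1D, KITLG, CCNG1 and GADD45A rose and SFN and TNFRSF10A fell, 5 higher and 2 lower of 33 beside 4.61% and 3.49% of all genes. The median log2 fold change was 0.07 in total RNA and 0.03 in nascent RNA, and 0.00 and -0.01 over all genes.

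The study's own limit, an unadjusted p under 0.05 and a change of 1 or more on the log2 scale either way, was also applied to the nascent fits. It held for TNFRSF10B with SRPIN340, 1 higher and 0 lower of 33 beside 3.34% and 1.32% of all genes. With Endovion it held for CCNG1 and CCNG2 as higher and TNFRSF10A and DRAM1 as lower (beside 4.78% and 1.71%). With THZ531 it held for KITLG, GADD45A, SUSD6, PPM1D and CCNG1 as higher and CYFIP2 as lower (beside 5.66% and 6.33%). With the combination it held for CCNG1, CCNG2, GADD45A, TNFRSF10B, KITLG and PPM1D as higher and AEN, TNFRSF10A and DRAM1 as lower (beside 6.19% and 5.14%).

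Among the genes that control p53 itself, the inhibitors MDM2 and MDM4 were not called, and PPM1D and CCNG1 rose. MDM2, the ubiquitin ligase that marks p53 for degradation, had 331 and 375 CPM in the control libraries, 358 and 341 with SRPIN340, 299.6 and 352 with Endovion, 342 and 376 with THZ531 and 273 and 347 with the combination. Treated and control libraries overlapped in each comparison. The log2 fold change of total MDM2 was 0.02 with THZ531 (95% confidence interval -0.25 to 0.29) and -0.19 with the combination (-0.46 to 0.08). Nascent MDM2 was 222 and 198 T>C CPM in control, 199 and 202 with THZ531 and 188 and 188 with the combination, with log2 fold changes of -0.07 (-0.43 to 0.29) and -0.16 (-0.53 to 0.21). The intervals bound the size of a change in MDM2 relative to the typical gene and do not show that there was none. A change shared by most genes would be removed by the scaling of the libraries and was not measured. MDM4, which binds p53 and masks its activation domain, had 176 and 194 CPM in control, 188 and 166 with SRPIN340, 156 and 176 with Endovion, 198 and 196 with THZ531 and 190.3 and 206 with the combination. The interval of its total log2 fold change was -0.14 to 0.33 with THZ531 and -0.14 to 0.34 with the combination.

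PPM1D, the phosphatase WIP1 that removes activating phosphates from p53 and its kinases, was higher with THZ531 and with the combination. Its total RNA was 20.5 and 11.98 CPM in control, 17.3 and 22.2 with SRPIN340, 23.6 and 24.8 with Endovion, 27.8 and 40.6 with THZ531 and 36.8 and 33.5 with the combination. All THZ531 and combination libraries lay above both control libraries. On the log2 scale the change was 1.06 ± 0.24 with THZ531 (edgeR adjusted p = 0.00592) and 1.11 ± 0.24 with the combination (0.00507). Without control library 2, the lower of the pair, these were 0.69 and 0.73, with edgeR adjusted p = 0.0437 and 0.0377. Nascent PPM1D was 15.3 and 9.56 T>C CPM in control, 26.5 and 27.2 with THZ531 and 43.7 and 36.1 with the combination, and rose by 1.66 ± 0.45 with the combination (edgeR adjusted p = 0.012, and 1.38 with an adjusted p of 0.148 without control library 2). For total PPM1D the call with THZ531 was lost without THZ531 library 2 (0.69 to 1.51 over these fits) and the call with the combination was lost without combination library 1 (0.73 to 1.56 over these fits). For nascent PPM1D the call with the combination was lost without control library 2 or combination library 1 (1.38 to 2.06 over these fits).

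CCNG1, cyclin G1, a binding partner of MDM2 and of protein phosphatase 2A, rose with every treatment. Its total RNA was 47.7 and 30.3 CPM in control, 63.3 and 67.2 with SRPIN340, 68.2 and 72.97 with Endovion, 65.2 and 75.5 with THZ531 and 82.8 and 81.3 with the combination. Each treated library was above both control libraries. This gave a log2 fold change of 0.74 ± 0.17 with SRPIN340 (edgeR adjusted p = 0.0411), 0.85 ± 0.17 with Endovion (0.00668), 0.85 ± 0.17 with THZ531 (0.00188) and 1.07 ± 0.17 with the combination (0.000417). Without control library 2 the changes with THZ531 and with the combination were 0.52 and 0.74 and were still called, and those with SRPIN340 and Endovion, 0.41 and 0.52, were not (edgeR adjusted p = 0.441 and 0.0885). Nascent CCNG1 was 24.3 and 19.9 T>C CPM in control and 53.8 and 63.4 with the combination, a log2 fold change of 1.39 ± 0.35 (edgeR adjusted p = 0.00606), and of 1.27 without control library 2, not called. With SRPIN340, Endovion and THZ531 the nascent log2 fold changes of 0.97, 1.11 and 1.05 did not pass (edgeR adjusted p = 0.215, 0.076 and 0.0548). Total CCNG1 was called in all leave-one-out fits with THZ531 and with the combination and in 3 of 10 with SRPIN340 (0.41 to 1.11 over these fits), whereas the call with Endovion was lost without control library 2 or Endovion library 2 (0.52 to 1.22 over these fits). For nascent CCNG1 the call with the combination was lost without control library 2 or combination library 2 (1.27 to 1.56 over these fits).

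**Figure D2:**
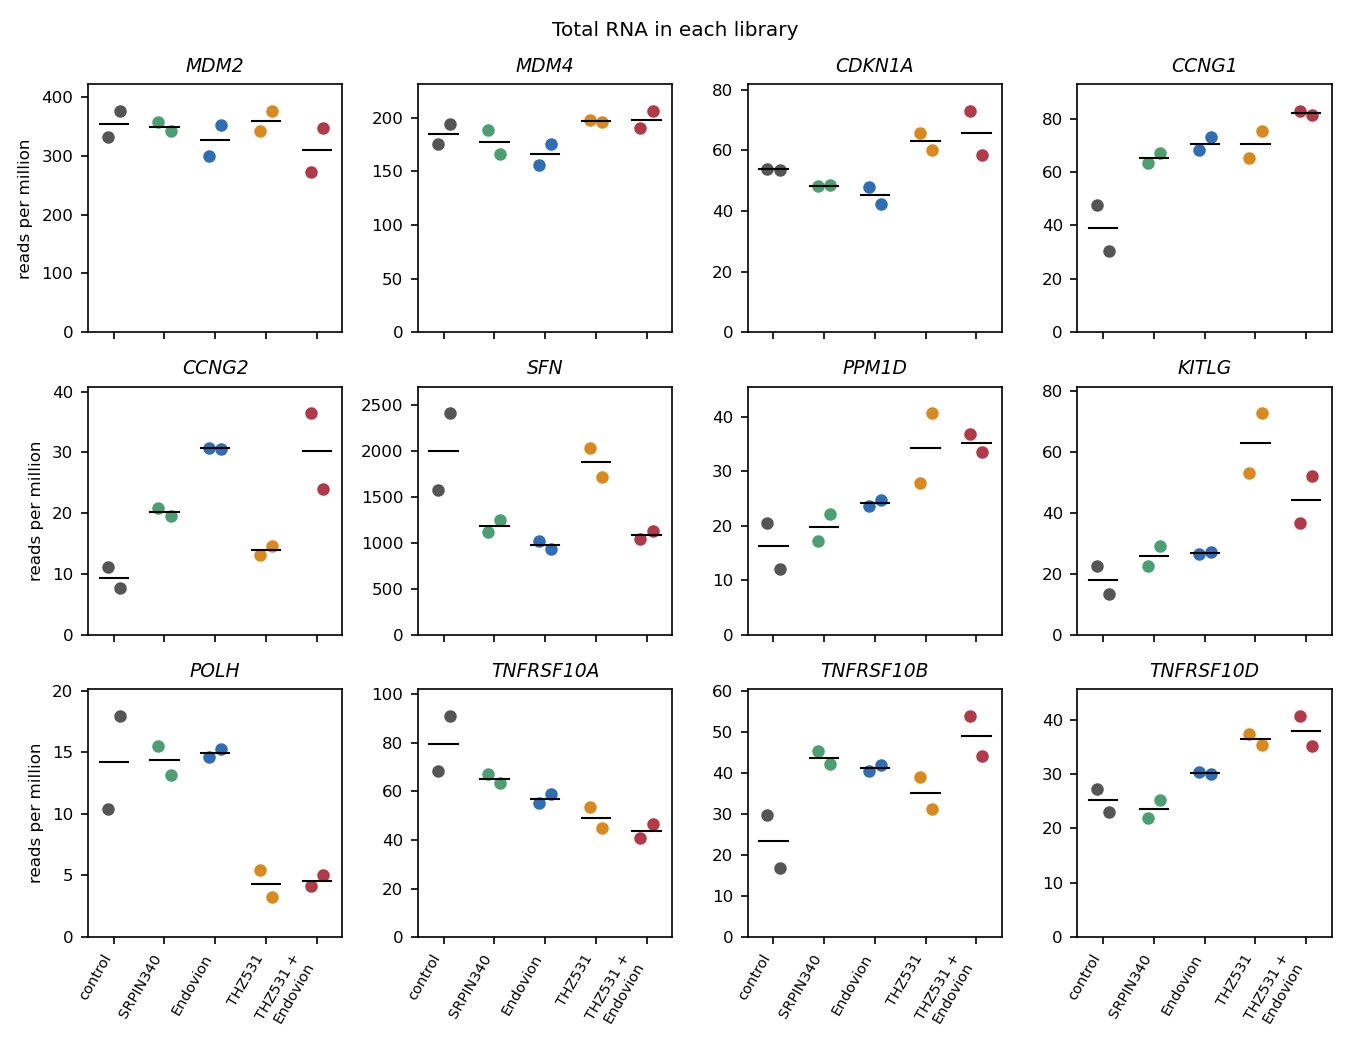
Total RNA in CPM (vertical axes, each from 0) of 12 p53 targets in the 2 libraries of each group (points, horizontal bars are means). SFN is between 933 and 1247 in all libraries with SRPIN340, Endovion or the combination and at 1582 or above in control and with THZ531 alone, MDM2 overlaps control in every group, and POLH is at 5.45 or below in the 4 libraries that received THZ531.

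Of the cell cycle genes, CDKN1A, which encodes the CDK inhibitor p21, did not pass in any comparison with control. Its total RNA was 53.9 and 53.7 CPM in control, 48.4 and 48.4 with SRPIN340, 48.1 and 42.3 with Endovion, 65.8 and 60.1 with THZ531 and 72.95 and 58.4 with the combination. The libraries with SRPIN340 and Endovion were all below control and those with THZ531 and the combination all above it. The log2 fold changes were -0.15, -0.25, 0.23 and 0.29, and the one nearest to a call was that of the combination (95% confidence interval 0.01 to 0.57, edgeR unadjusted p = 0.0463, adjusted p = 0.117). Nascent CDKN1A was 93.9 and 96.3 T>C CPM in control, 71.8 and 82.6 with SRPIN340, 79.95 and 88.8 with Endovion, 79.4 and 98.9 with THZ531 and 103 and 103 with the combination. The interval of its nascent log2 fold change was -0.59 to 0.39 with THZ531 and -0.37 to 0.60 with the combination.

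SFN was the most abundant of the 40 genes in reads, and it fell in every group that received SRPIN340 or Endovion. Total RNA was 1582 and 2413 CPM in control, 1118 and 1247 with SRPIN340, 1026 and 933 with Endovion, 2031 and 1725 with THZ531 and 1047 and 1136 with the combination. The libraries with SRPIN340, Endovion and the combination were below both control libraries, and those with THZ531 lay between them. Its log2 fold change was -0.76 ± 0.16 with SRPIN340 (edgeR adjusted p = 0.0417), -1.03 ± 0.17 with Endovion (0.00379) and -0.87 ± 0.17 with the combination (0.0022). With THZ531 it was -0.09 (-0.44 to 0.27). Nascent RNA was 1333 and 2059.97 T>C CPM in control, 1027 and 1206 with SRPIN340, 978 and 863 with Endovion, 1802 and 1539 with THZ531 and 978 and 1096 with the combination. Its log2 fold change was -0.60 ± 0.15 with SRPIN340 (edgeR adjusted p = 0.0302), -0.88 ± 0.15 with Endovion (0.000143) and -0.71 ± 0.15 with the combination (0.00133). Control library 2 was the higher one. Without it the total changes with Endovion and the combination were -0.74 and -0.58 and were still called, while the total change with SRPIN340 was -0.46 and all nascent changes were between -0.53 and -0.25, none of them called. Total SFN was called in all leave-one-out fits with the combination and in 3 of 10 with SRPIN340 (-1.03 to -0.46 over these fits), whereas the call with Endovion was lost without Endovion library 1 or Endovion library 2 (-1.30 to -0.74 over these fits). For nascent SFN the call with SRPIN340 was lost without control library 2, SRPIN340 library 1 or SRPIN340 library 2 (-0.87 to -0.25 over these fits) and the call with Endovion was lost without control library 2 (-1.16 to -0.53 over these fits) and the call with the combination was lost without control library 2 or combination library 1 (-0.98 to -0.36 over these fits).

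GADD45A, a small stress protein that acts on CDK1 and on DNA repair, rose with THZ531 alone and in the combination. Total RNA was 36.6 and 41.97 CPM in control, 37.5 and 47.1 with SRPIN340, 30.5 and 37.97 with Endovion, 58.05 and 69.1 with THZ531 and 69.6 and 62.1 with the combination. All libraries with THZ531 were above those without it. Against control the log2 fold change was 0.69 ± 0.16 with THZ531 (edgeR adjusted p = 0.00368) and 0.75 ± 0.16 with the combination (0.00252). Nascent GADD45A went from 26.2 and 19.9 T>C CPM in control to 58.1 and 57.5 with THZ531 and 67.3 and 45.9 with the combination, with log2 fold changes of 1.32 ± 0.38 (edgeR adjusted p = 0.0225) and 1.29 ± 0.39 (0.0247), neither of them called without control library 2 (1.14 and 1.11). Total GADD45A was called in all leave-one-out fits with the combination, whereas the call with THZ531 was lost without THZ531 library 2 (0.51 to 0.77 over these fits). For nascent GADD45A the call with THZ531 was lost without control library 2, THZ531 library 1 or THZ531 library 2 (1.14 to 1.55 over these fits) and the call with the combination was lost without control library 2 or combination library 1 (0.98 to 1.54 over these fits).

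CCNG2, cyclin G2, which slows the cell cycle, rose with SRPIN340, Endovion and the combination. Total RNA was 11.2 and 7.61 CPM in control, 20.9 and 19.5 with SRPIN340, 30.8 and 30.7 with Endovion, 13.2 and 14.6 with THZ531 and 36.4 and 24.1 with the combination. Each treated library was above both control libraries. On the log2 scale the change was 1.10 ± 0.21 with SRPIN340 (edgeR adjusted p = 0.0234, and 0.81 with an adjusted p of 0.287 without control library 2), 1.70 ± 0.21 with Endovion (0.000901) and 1.68 ± 0.21 with the combination (7.57e-05). With THZ531 it was 0.55 ± 0.21 (0.0585). Nascent CCNG2 rested on 8 to 41 T>C reads a library and was not called. It was 17.9 and 6.37 T>C CPM in control, 31.2 and 24.8 with Endovion and 23.5 and 34.2 with the combination. Total CCNG2 was called in all leave-one-out fits with Endovion and with the combination, whereas the call with SRPIN340 was lost without control library 2, SRPIN340 library 1 or SRPIN340 library 2 (0.81 to 1.41 over these fits).

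The kinases PLK2 and PLK3, which respond to stress and regulate the cell cycle, differed in direction. PLK2 had 2.14 and 2.02 CPM in control, 1.72 and 2.001 with SRPIN340, 1.03 and 2.37 with Endovion, 7.22 and 9.33 with THZ531 and 4.38 and 4.45 with the combination. Every library with THZ531 was above every library without it. This gave a log2 fold change of 1.99 ± 0.33 with THZ531 (edgeR adjusted p = 0.000477) and 1.08 ± 0.34 with the combination (0.0242, and 0.999 with an adjusted p of 0.122 without control library 2). PLK3 had 9.16 and 9.71 CPM in control, 7.55 and 7.14 with SRPIN340, 6.88 and 6.43 with Endovion, 7.30 and 5.68 with THZ531 and 3.64 and 5.86 with the combination. All treated libraries were below both control libraries, and the fall passed with the combination, at -0.997 ± 0.25 (edgeR adjusted p = 0.00767). Neither kinase passed the filter on low counts in nascent RNA. Total PLK2 was called in all leave-one-out fits with THZ531 and in 6 of 10 with the combination (0.999 to 1.13 over these fits). For total PLK3 the call with the combination was lost without combination library 1 (-1.37 to -0.75 over these fits).

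In the DNA repair group POLH and XPC fell with THZ531 and RRM2B rose with Endovion. POLH, the translesion DNA polymerase eta, had 10.4 and 17.96 CPM in control, 15.5 and 13.1 with SRPIN340, 14.6 and 15.2 with Endovion, 5.45 and 3.22 with THZ531 and 4.12 and 5.02 with the combination. Every library with THZ531 was below every library without it. Its log2 fold change was -1.69 ± 0.28 with THZ531 (edgeR adjusted p = 0.000555) and -1.63 ± 0.28 with the combination (0.000786). Without control library 2 these were -1.28 and -1.23, still called. Nascent POLH had 1 to 18 T>C reads a library and was not called, with an interval of -2.72 to 1.61 for its log2 fold change with THZ531.

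XPC, the damage sensor of nucleotide excision repair, had 43.4 and 40.4 CPM in control, 47.3 and 48.7 with SRPIN340, 48.96 and 49.1 with Endovion, 32.7 and 26.3 with THZ531 and 39.2 and 35.4 with the combination. It fell by 0.50 ± 0.14 on the log2 scale with THZ531 (edgeR adjusted p = 0.0119), while with the combination the change was -0.17 (-0.46 to 0.12). For total XPC the call with THZ531 was lost without control library 1 or THZ531 library 2 (-0.72 to -0.41 over these fits). RRM2B, the p53-inducible subunit of ribonucleotide reductase, had 31.00 and 26.7 CPM in control, 34.3 and 34.99 with SRPIN340, 38.2 and 39.99 with Endovion, 33.6 and 38.2 with THZ531 and 36.7 and 38.8 with the combination. All treated libraries were above control, by 0.44 ± 0.14 with Endovion (edgeR adjusted p = 0.0485) and 0.39 ± 0.14 with the combination (0.0436), and by 0.29 and 0.24, not called, without control library 2. Total RRM2B was called in 1 of 10 with Endovion (0.29 to 0.55 over these fits) and in 1 of 10 with the combination (0.24 to 0.50 over these fits). DDB2, the other damage sensor of this group, was not called.

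The death receptors for TRAIL, a ligand that starts apoptosis, went opposite ways. TNFRSF10A and TNFRSF10B both carry a death domain, and TNFRSF10D is a decoy that binds the ligand without a complete one. Total TNFRSF10A was 68.3 and 91.2 CPM in control, 67.3 and 63.4 with SRPIN340, 55.2 and 58.8 with Endovion, 53.4 and 44.9 with THZ531 and 40.8 and 46.7 with the combination. All treated libraries were below both control libraries. Against control the log2 fold change was -0.49 ± 0.15 with Endovion (edgeR adjusted p = 0.0448), -0.70 ± 0.15 with THZ531 (0.00267) and -0.87 ± 0.15 with the combination (0.000668). Without control library 2 it was -0.31, -0.51 and -0.69, and the change with Endovion was not called. Nascent TNFRSF10A was 35.1 and 41.4 T>C CPM in control, 21.3 and 15.3 with Endovion, 31.7 and 21.2 with THZ531 and 6.73 and 21.5 with the combination, where it fell by 1.46 ± 0.46 (edgeR adjusted p = 0.0364). Without control library 2 its nascent log2 fold change was -1.34, not called. Total TNFRSF10A was called in all leave-one-out fits with THZ531 and with the combination and in 4 of 10 with Endovion (-0.68 to -0.31 over these fits). For nascent TNFRSF10A the call with the combination was lost without control library 1, control library 2 or combination library 1 (-2.48 to -0.83 over these fits).

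TNFRSF10B, the other receptor with a death domain, was higher in all treated libraries than in both control libraries. Its total RNA was 29.9 and 16.9 CPM in control, 45.5 and 42.2 with SRPIN340, 40.7 and 42.1 with Endovion, 38.99 and 31.3 with THZ531 and 54.1 and 44.1 with the combination. On the log2 scale the change was 0.82 ± 0.22 with Endovion (edgeR adjusted p = 0.0314) and 1.07 ± 0.22 with the combination (0.00356), and 0.90 ± 0.22 with SRPIN340 and 0.59 ± 0.22 with THZ531, which did not pass (0.053 and 0.0588). Without control library 2 the change with Endovion was 0.42 and was not called, and that with the combination was 0.67 and was. Nascent TNFRSF10B was 17.9 and 21.5 T>C CPM in control, 35.6 and 48.5 with SRPIN340, 35.8 and 34.4 with Endovion, 36.8 and 33.3 with THZ531 and 71.5 and 55.6 with the combination. It rose by 1.70 ± 0.36 with the combination (edgeR adjusted p = 0.00105), and this was called in all 10 fits that left out a library, the sole nascent call of the set for which that held. Its counted interval overlaps that of RHOBTB2 on the opposite strand by 67 bases. Total TNFRSF10B was called in all leave-one-out fits with the combination, whereas the call with Endovion was lost without control library 2, Endovion library 1 or Endovion library 2 (0.42 to 1.29 over these fits). TNFRSF10D had 27.3 and 23.1 CPM in control, 21.9 and 25.1 with SRPIN340, 30.4 and 29.96 with Endovion, 37.4 and 35.4 with THZ531 and 40.7 and 35.2 with the combination, and rose by 0.53 ± 0.15 with THZ531 (edgeR adjusted p = 0.0121) and 0.59 ± 0.15 with the combination (0.00711), neither of them called without control library 2 (0.38 and 0.43). TNFRSF10C, the other decoy, had no reads. For total TNFRSF10D the call with THZ531 was lost without control library 2, THZ531 library 1 or THZ531 library 2 (0.38 to 0.66 over these fits) and the call with the combination was lost without control library 2 or combination library 1 (0.42 to 0.72 over these fits).

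**Figure D3:**
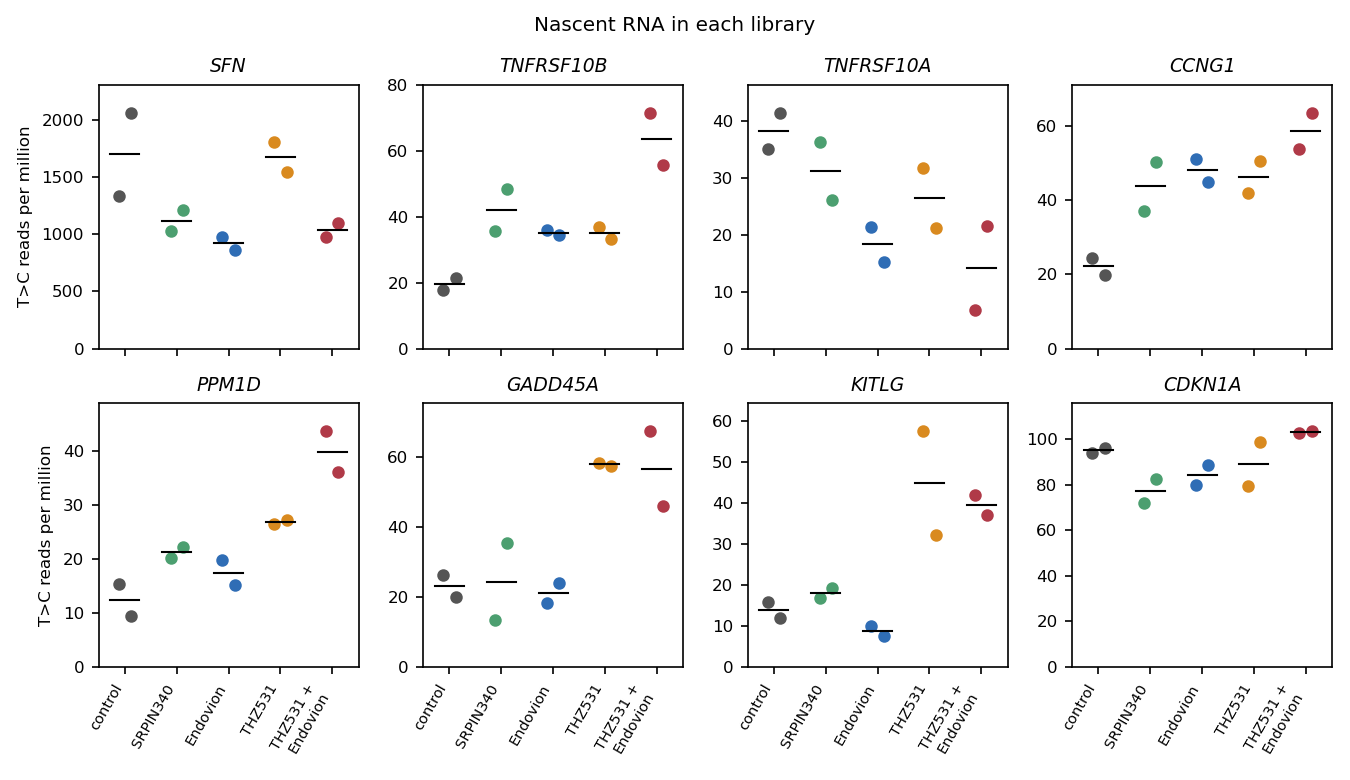
Nascent RNA in T>C CPM (vertical axes, each from 0) of the 7 p53 targets called in nascent RNA and of CDKN1A, in the 2 libraries of each group (points, horizontal bars are means). TNFRSF10B and CCNG1 are above both control libraries in every treated library, GADD45A and KITLG are above all others in the libraries with THZ531, and CDKN1A stays between 71.8 and 103.

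Of the other genes of cell death, AEN, a nuclease that enhances apoptosis, fell with Endovion and with the combination. It had 59.9 and 70.5 CPM in control, 48.4 and 45.1 with SRPIN340, 41.04 and 41.6 with Endovion, 56.9 and 41.3 with THZ531 and 29.7 and 45.8 with the combination. All treated libraries were below control, and the log2 fold change was -0.66 ± 0.19 with Endovion (edgeR adjusted p = 0.0407, and -0.58 with an adjusted p of 0.225 without control library 2) and -0.79 ± 0.19 with the combination (0.00773). AEN is also the gene whose promoter window holds the near-complete p53 site shown above. Total AEN was called in 5 of 10 with Endovion (-0.77 to -0.58 over these fits), whereas the call with the combination was lost without combination library 1 (-1.13 to -0.57 over these fits). PERP, a membrane protein of desmosomes, had 262 and 201 CPM in control, 248 and 258 with SRPIN340, 251 and 279 with Endovion, 284 and 305 with THZ531 and 288 and 281 with the combination. Its rise of 0.35 ± 0.12 with THZ531 (edgeR adjusted p = 0.0405) was 0.13 and not called without control library 2. Total PERP was called in 3 of 10 with THZ531 (0.13 to 0.55 over these fits). FAS, PHLDA3, TRIAP1 and CYFIP2 were not called.

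Of the metabolic genes SESN1, a sestrin that restrains mTORC1, was higher in all treated libraries than in control. It had 7.16 and 5.34 CPM in control, 11.03 and 7.81 with SRPIN340, 9.72 and 12.95 with Endovion, 9.58 and 9.59 with THZ531 and 15.2 and 14.3 with the combination. The rise passed with Endovion, at 0.85 ± 0.23 (edgeR adjusted p = 0.0268, and 0.61 with an adjusted p of 0.28 without control library 2), and with the combination, at 1.24 ± 0.23 (0.00117). Total SESN1 was called in all leave-one-out fits with the combination, whereas the call with Endovion was lost without control library 2, Endovion library 1 or Endovion library 2 (0.61 to 1.08 over these fits). TP53I3, an oxidoreductase, was near the detection limit, with 21 and 8 reads in the control libraries, 4 and 4 with SRPIN340, 11 and 8 with Endovion, 0 and 2 with THZ531 and 2 and 8 with the combination. Its call as lower with THZ531 (edgeR log2 fold change -3.45 ± 1.25, adjusted p = 0.0459) was lost in every fit that left out a library. Over these fits the log2 fold change was -6.83 to -2.34, and it was -3.93 without control library 2. TIGAR, FDXR, SPATA18 and DRAM1 were not called, and the counted interval of TIGAR overlaps a gene on the same strand by 930 bases, so that its reads may be shared.

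Among the genes of other functions KITLG, the ligand of the receptor KIT, and SUSD6, a membrane protein, rose with THZ531 and with the combination. KITLG had 22.6 and 13.3 CPM in control, 22.5 and 29.1 with SRPIN340, 26.6 and 27.2 with Endovion, 53.1 and 72.7 with THZ531 and 36.7 and 52.1 with the combination. All libraries with THZ531 were above all libraries without it. This gave a log2 fold change of 1.80 ± 0.27 with THZ531 (edgeR adjusted p = 0.000976) and 1.30 ± 0.27 with the combination (0.00571). Nascent KITLG was 15.97 and 11.9 T>C CPM in control, 9.90 and 7.64 with Endovion, 57.5 and 32.3 with THZ531 and 42.04 and 37.1 with the combination, and rose by 1.69 ± 0.44 (edgeR adjusted p = 0.00829) and 1.49 ± 0.44 (0.0232), not called without control library 2 (1.51 and 1.31). Total KITLG was called in all leave-one-out fits with THZ531 and with the combination. For nascent KITLG the call with THZ531 was lost without control library 2 or THZ531 library 1 (1.20 to 2.03 over these fits) and the call with the combination was lost without control library 2, combination library 1 or combination library 2 (1.31 to 1.73 over these fits). SUSD6 had 7.59 and 4.42 CPM in control, 7.51 and 10.5 with SRPIN340, 10.8 and 9.10 with Endovion, 14.9 and 19.1 with THZ531 and 15.8 and 13.2 with the combination, and rose by 1.49 ± 0.26 with THZ531 (edgeR adjusted p = 0.000661) and 1.26 ± 0.26 with the combination (0.00229). Total SUSD6 was called in all leave-one-out fits with THZ531 and with the combination.

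ZMAT3, an RNA-binding zinc finger protein that regulates splicing, had 47.8 and 48.5 CPM in control, 48.4 and 49.03 with SRPIN340, 49.4 and 46.3 with Endovion, 70.3 and 69.8 with THZ531 and 68.8 and 63.2 with the combination. Its log2 fold change was 0.54 ± 0.12 with THZ531 (edgeR adjusted p = 0.00305) and 0.45 ± 0.12 with the combination (0.00925, and 0.42 with an adjusted p of 0.0605 without control library 2), and its intervals with SRPIN340 and Endovion were -0.23 to 0.27 and -0.26 to 0.24. Total ZMAT3 was called in all leave-one-out fits with THZ531, whereas the call with the combination was lost without control library 2 or combination library 1 (0.33 to 0.52 over these fits). BLOC1S2, a subunit of a complex that positions lysosomes, had 223 and 168 CPM in control, 251 and 222 with SRPIN340, 195 and 248 with Endovion, 265 and 314 with THZ531 and 234 and 232 with the combination. It rose by 0.56 ± 0.15 with THZ531 (edgeR adjusted p = 0.01, and 0.34 with an adjusted p of 0.138 without control library 2). For total BLOC1S2 the call with THZ531 was lost without control library 2 or THZ531 library 2 (0.34 to 0.79 over these fits). NINJ1, which ruptures the plasma membrane of dying cells, had 59.7 and 70.3 CPM in control, 55.03 and 52.6 with SRPIN340, 52.5 and 50.8 with Endovion, 63.8 and 56.8 with THZ531 and 46.4 and 52.6 with the combination, where it fell by 0.39 ± 0.13 (edgeR adjusted p = 0.0328, and -0.32 with an adjusted p of 0.162 without control library 2). Total NINJ1 was called in 5 of 10 with the combination (-0.51 to -0.32 over these fits).

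The 15 targets not named so far with values are TP53INP1, FBXW7, DDB2, FAS, TNFRSF10C, PHLDA3, TRIAP1, CYFIP2, TIGAR, FDXR, SPATA18, DRAM1, TRIM22, PLXNB2 and EPHA2. None of them was called against control in nascent or total RNA. In total RNA 13 of them were tested, and their median log2 fold change was -0.16 with SRPIN340, -0.17 with Endovion, 0.00 with THZ531 and -0.09 with the combination. Their range was -0.43 (TRIAP1) to 1.20 (EPHA2) with SRPIN340, -0.40 (PHLDA3) to 0.98 (EPHA2) with Endovion, -0.46 (PHLDA3) to 2.57 (EPHA2) with THZ531 and -0.62 (DRAM1) to 1.29 (EPHA2) with the combination. EPHA2 had 9 to 99 reads a library and its highest value in 1 library with THZ531. In nascent RNA 11 were tested, and the lowest edgeR adjusted p was that of CYFIP2 with THZ531, at a log2 fold change of -1.04 ± 0.37 (adjusted p = 0.0723).

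Several targets lay close to the threshold. With SRPIN340 total SFN was just inside (edgeR adjusted p = 0.0417) and TNFRSF10B just outside (0.053). With Endovion RRM2B was just inside (0.0485) and TRIAP1 just outside, at a log2 fold change of -0.40 (edgeR adjusted p = 0.0766). With THZ531 TP53I3 was just inside and EPHA2 just outside (0.055), and with the combination RRM2B was just inside and PHLDA3 just outside, at -0.59 (edgeR adjusted p = 0.0522).

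The change that Endovion made on top of THZ531 was tested directly. Between the combination and THZ531, 1 of 33 targets was called in nascent RNA (0.322% of all genes) and 1 of 38 in total RNA (0.511%). Nascent SFN was lower with the combination by 0.69 ± 0.15 on the log2 scale (edgeR adjusted p = 0.0198), with 978 and 1096 T>C CPM against 1802 and 1539. Total CCNG2 was higher with the combination by 1.13 ± 0.21 (edgeR adjusted p = 0.0258), with 36.4 and 24.1 CPM against 13.2 and 14.6. Total SFN, at -0.78 ± 0.16, missed the threshold (0.0633). For TNFRSF10B, which was called with the combination and not with THZ531, the difference between them was 0.85 ± 0.35 in nascent RNA (edgeR adjusted p = 0.468) and 0.48 ± 0.22 in total RNA (0.434), and for XPC, called with THZ531 and not with the combination, it was 0.33 ± 0.14 in total RNA (0.369). For PLK2 it was -0.90 ± 0.32 (0.253).

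Against control, Endovion alone gave -0.88 for nascent SFN and 1.70 for total CCNG2. The interaction asks whether the combination differs from the sum of both single changes on the log2 scale. It was not called for any target in nascent RNA (0.302% of all genes called) or in total RNA (0.00681%). At an unadjusted p under 0.05 there were 1 of 33 targets beside 766 of 9946 genes in nascent RNA. In total RNA there were 4 of 38 targets beside 1906 of 14690 genes. The lowest adjusted p in total RNA was that of KITLG, at -1.08 ± 0.37 (edgeR adjusted p = 0.298). For nascent SFN it was 0.19 ± 0.22 (edgeR adjusted p = 0.902) and for total CCNG2 -0.58 ± 0.29 (0.421). DESeq2 also called 0 in both.

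SRPIN340 and Endovion were given at different doses, so their libraries are set side by side as given. In the direct comparison 0 of 33 were called in nascent RNA (0.0603% of all genes called) and 0 of 38 in total RNA (0.034%). At an unadjusted p under 0.05 there were 2 of 33 targets beside 388 of 9946 genes in nascent RNA. In total RNA there were 2 of 38 targets beside 540 of 14690 genes. CCNG2, at 0.60 ± 0.20 higher with Endovion (95% confidence interval 0.17 to 1.03), and TNFRSF10D, at 0.36 ± 0.15 (0.05 to 0.67), were the 2 in total RNA. For SFN the difference was -0.27 (-0.63 to 0.08) and for CCNG1 0.11 (-0.24 to 0.47). These intervals do not show that the compounds act alike.

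The labelled share, the part of a gene's reads that were counted as T>C reads, differed widely between the targets. No unlabelled library was analysed here, so how much of a share comes from sequence variants or errors was not tested, and the share is not the part newly made. In the control libraries together it ran from 0.765% for FDXR (6 of 784 reads, exact 95% interval 0.281% to 1.66%, which covers counting error only) to 25.9% for BLOC1S2 (2660 of 10272 reads, 25.1% to 26.8%), with a median of 4.59% over the 33 targets tested and 5.19% over all 9946 genes. After BLOC1S2 the highest shares were those of DRAM1 (22.8%, 50 of 219 reads), FAS (15.9%, 29 of 182), XPC (13.9%, 302 of 2177), CYFIP2 (12.3%, 148 of 1203) and CDKN1A (9.61%, 268 of 2788). MDM2 had 3.28% (597 of 18213) and SFN 4.59% (4674 of 101782). These shares also depend on how many T a counted interval holds, and their order is a description.

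**Figure D4:**
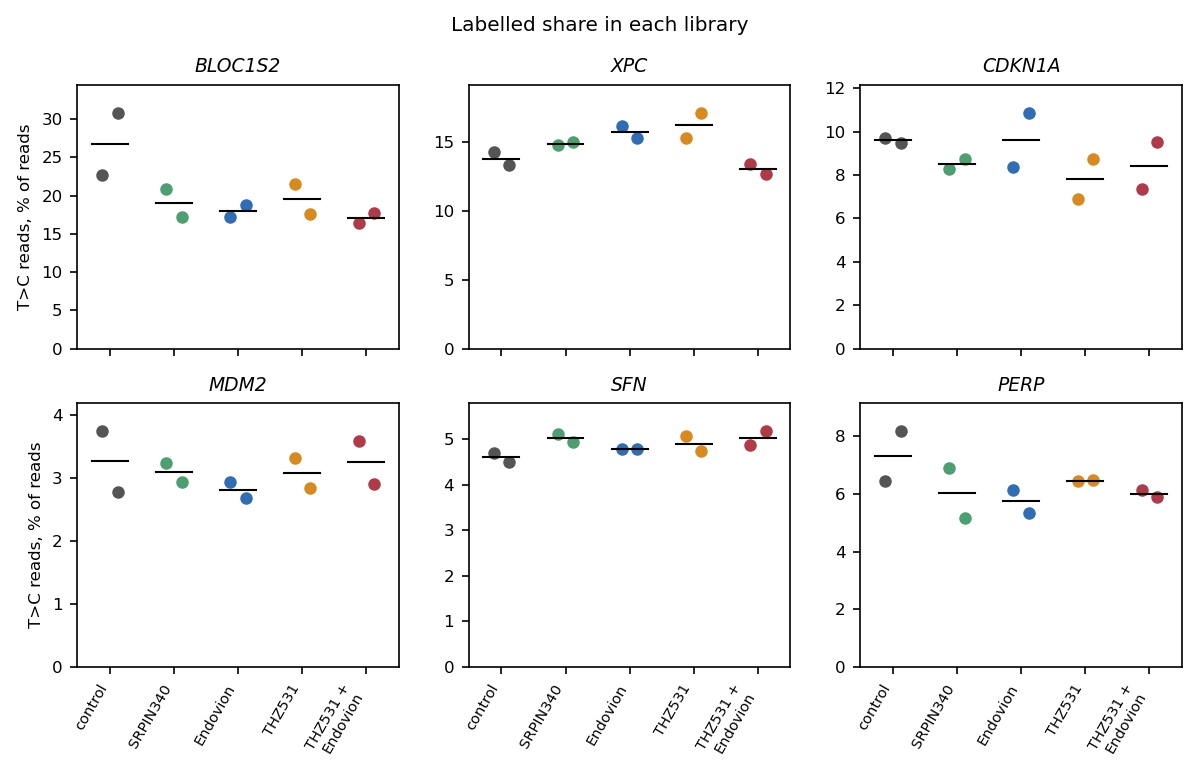
Labelled share, the T>C reads in percent of all reads (vertical axes, each from 0), of 6 p53 targets in the 2 libraries of each group (points, horizontal bars are means). BLOC1S2 is at 22.8% and 30.8% in the control libraries and at 16.4% and 17.7% with the combination, and SFN stays between 4.51% and 5.17% in all groups.

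The change of the share with a treatment was tested relative to the typical gene. It was called for BLOC1S2 with the combination, 1 of 33 targets beside 1.06% of all 9943 genes tested. This call was lost when all overlapping intervals of a gene were summed. It was also lost when only the control and combination libraries were fitted. The share of BLOC1S2 was 22.8 and 30.8% in control, 20.9 and 17.3% with SRPIN340, 17.2 and 18.8% with Endovion, 21.5 and 17.6% with THZ531 and 16.4 and 17.7% with the combination. All treated libraries were below both control libraries, by 0.63 ± 0.13 on the log2 scale with the combination (edgeR adjusted p = 0.0101) and 0.47 ± 0.13 with Endovion (0.115, not called). No target was called with SRPIN340 (0.191% of all genes called), Endovion (0.292%) or THZ531 (0.312%). At an unadjusted p under 0.05 there were 4, 3 and 3 of 33 targets, beside 853, 951 and 1011 of 9943 genes. For the other targets a difference between nascent and total RNA was thus not detectable at this depth.

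A list of 52 other genes of the pathway, 22 regulators of p53 and 30 further targets, gives the surroundings. NOTCH1 was not analysed here. Of 48 tested in total RNA, 3 were higher and 0 lower with SRPIN340 (beside 1.82% and 0.143% of all genes), 8 and 1 with Endovion (8.9% and 2.53%), 9 and 6 with THZ531 (16.6% and 14.1%), and 15 and 7 with the combination (16.6% and 12.4%). Of 41 tested in nascent RNA, none was called with SRPIN340 or Endovion (1.04% and 2.66% of all genes called). At an unadjusted p under 0.05 there were 4 and 8 of them, beside 1036 and 1400 of 9946 genes. With THZ531 2 were called as higher and 1 as lower (3.86% and 3.6%). With the combination 5 were called as higher and 0 as lower (4.61% and 3.49%).

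Leave-one-out values are not given for the genes of this list, so how far their calls rest on control library 2 is not shown. Among the named genes, DDIT4, an inhibitor of mTORC1, had 28.1 and 8.76 T>C CPM in control and 124 and 74.2 with the combination. That is a rise of 2.39 ± 0.37 (edgeR adjusted p = 6.79e-06), with control library 2 the lower of the pair. SESN2, the stress-induced sestrin, had 47.9 and 46.2 and 198 and 111, a rise of 1.72 ± 0.27 (6.55e-06). ATF3, a stress-induced transcription factor, rose in total RNA with all 4 treatments, from 19.1 and 13.5 CPM in control to 65.8 and 45.8 with the combination (1.77 ± 0.19, edgeR adjusted p = 3.45e-05). Of the regulators, HIPK2, a kinase that phosphorylates p53, fell in nascent RNA with THZ531 from 265 and 250.03 to 125 and 113 T>C CPM (-1.11 ± 0.19, edgeR adjusted p = 3.79e-05), and CHEK1, a checkpoint kinase, rose from 137 and 100.3 to 216 and 309.8 (1.14 ± 0.21, edgeR adjusted p = 0.000152). In total RNA with THZ531 PPP1R13L, an inhibitor of p53, fell by 0.995 ± 0.14 (edgeR adjusted p = 0.000166), and RCHY1, a ubiquitin ligase of p53, and ASCC3, a DNA repair helicase, rose by 0.91 ± 0.17 and 1.06 ± 0.17 (edgeR adjusted p = 0.000972 and 0.000304).

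Gene length was set beside the direction with THZ531, since CDK12 is known for its role on long genes. From start to end in the annotation, the 10 targets higher in total RNA with THZ531 had a median span of 23.7 kb (3.13 to 112 kb) and the 4 lower ones 34.1 kb (8.43 to 44.3 kb). The 24 not called had a median of 33.6 kb and all 14690 genes tested 29.5 kb. Thymine made up a median of 32.9% of the counted intervals of the higher targets (28.1% to 35.5%) and 24.7% of the lower ones (14.4% to 28.8%), against 29.6% over all genes. The shortest span and the lowest thymine content of the lower targets were those of TP53I3, whose call was lost in every leave-one-out fit. The other lower targets spanned 33.5 to 44.3 kb. The spans of both groups overlap, and with 4 genes in 1 of them no test was made.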

How the data were processed

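SLAM-seq had been done on 22RV1 cells in 5 groups of 2 libraries, with 3′ end libraries of 300 ng RNA read over 101 bases. Per the file headers, SLAM-DUNK gave for each 3′ UTR interval the deposited counts of all reads and of reads with T>C conversions; the intervals lie on hg38. The deposited fraction of converted T per interval and a score for its reads scaled to the library, both made by the authors with the same tool, were not used in a test. The submitters' processing notes name Bowtie2 2.3.4.1, SAMtools 1.6 and DESeq2 1.38.2. The version and settings of SLAM-DUNK, and whether known variants were masked or molecular identifiers collapsed, are not given in the sources used here, and an unmasked T-to-C variant or a polymerase error would count as label.

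The files list 104653 intervals of 75026 transcripts. Intervals of the main chromosomes (96427) were joined to genes through GENCODE v44 (92910 matched), and where intervals of 1 gene overlapped only the best covered was counted (57437 in all), since a plain sum counts 48.8% of the T>C reads again. Intervals that matched no gene held 3.57% of the T>C reads. Each library had 19315560 to 30047897 reads and 1011598 to 1576121 T>C reads on genes, and T>C reads set the precision of a gene's nascent value.

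Counts were tested in R 4.3.3 with edgeR 4.0.16 (TMM factors, filterByExpr, robust quasi-likelihood fits of group means over all 10 libraries with 5 residual degrees of freedom, Benjamini-Hochberg adjustment over all genes tested). Nascent and total RNA were fitted separately, and the labelled share as the interaction of treatment and read class with the library as a block. CPM are of TMM-scaled library sizes, and the SE is the log2 fold change over the root of F. The study's rule asks for an unadjusted p under 0.05 and a change of 1 or more on the log2 scale in either direction. The scripts were tested on simulated data. Alternatives were DESeq2 1.42.0, other scaling, no filter, a plain sum, fits of 2 groups, a replicate block and leave-one-out fits; crossed replicate numbers were added after seeing the data. Replicates of a group differed by more than counting noise (chi-square per degree of freedom 15.1 to 23.7), so none was a copy.

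The 40 targets, their roles, the 52 other pathway genes and the markers were chosen with earlier results of these data known. Named with values were all targets called in total or nascent RNA against control together with MDM2, MDM4 and CDKN1A, and, of the other pathway genes, at most 8 with the smallest adjusted p; 1 further gene of that rule is not reported here.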

Additional observations from a re-analysis of the deposited data

Results flagged for a closer look

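Of the p53 targets tested (33 in nascent and 38 in total RNA), 2 results differed between the combination and THZ531 alone, which is the change with Endovion on top of THZ531. Nascent SFN, the gene of 14-3-3 sigma, was lower with the combination by a log2 fold change of -0.69 (edgeR adjusted p = 0.0198), and both of its libraries were below both libraries with THZ531. Total CCNG2, the gene of cyclin G2, was higher with the combination by 1.13 (edgeR adjusted p = 0.0258), again without overlap of the libraries. Neither result was called with the plain sum of intervals, and leave-one-out ranges for this comparison are not given here. The change with Endovion alone against control was -0.88 for nascent SFN and 1.70 for total CCNG2, and the interaction of THZ531 and Endovion was not called for either.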

How the results depend on the processing

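Of 54 calls of p53 targets against control, 891 values under other settings were made, and 723 kept the call, 168 lost it and 0 turned in direction. Leaving out control library 2 lost 28 calls, the plain sum of intervals 20, leaving out combination library 1 18, the 2-group fits 10, DESeq2 6, the replicate block 6, no filter on low counts 3, relative log expression factors 2 and scaling by all reads, run on the 11 nascent calls alone, 0; 19 calls held in every leave-one-out fit. Scaling by all reads moved the median nascent log2 fold change of all genes with Endovion by -0.13.

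In counts of targets called, the plain sum gave 0 in nascent RNA with SRPIN340 (1 in the fit reported), 0 with Endovion (1), 1 with THZ531 (2), 1 with the combination (7) and 0 for the combination against THZ531 (1), and in total RNA 0 with SRPIN340 (3), 4 with Endovion (8) and 0 for the combination against THZ531 (1). The 2-group fits gave 0 in nascent and 0 in total RNA with SRPIN340, and 2 in total RNA for the combination against THZ531. DESeq2 gave 0 in nascent RNA with SRPIN340, 1 with THZ531 and 2 in total RNA for the combination against THZ531. Without the filter 7 were called in total RNA with SRPIN340, 2 for the combination against THZ531 and 1 for the interaction (0). For the labelled share no filter gave 1 each with SRPIN340, Endovion and THZ531 (0), and the plain sum and the 2-group fit gave 0 each with the combination (1). The causes were not tested.

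Leave-one-out fits called 0 to 1 targets in nascent RNA with SRPIN340, 0 to 1 with Endovion, 0 to 2 with THZ531, 1 to 7 with the combination and 0 to 1 for the combination against THZ531. In total RNA they called 0 to 7, 1 to 13, 7 to 16, 10 to 21 and 0 to 2, and 0 to 3 for the interaction. For the labelled share they called 0 to 1 with each treatment. Endovion against SRPIN340 stayed at 0 in nascent and total RNA, and the nascent interaction at 0.

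The labels number the replicates and do not say that they are paired across groups. The correlation of replicate differences between groups was -0.07 to 0.06 in nascent RNA. In total RNA it ran from -0.28 (control and THZ531) to 0.37 (THZ531 and SRPIN340), and was -0.20 for control and SRPIN340. Whether libraries of these groups share a batch was not tested. With the replicate block 5 targets were called in total RNA with Endovion (8). Crossed numbers, chosen after seeing the data, gave 4 in total RNA with SRPIN340 (3) and 15 with THZ531 (14).

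Changes near 0 took the other sign. Nascent MDM4 with THZ531 was -0.014 with the plain sum, and total MDM2 with THZ531 was -0.00234 in the 2-group fit. In leave-one-out fits nascent MDM2 ranged from -0.13 to 0.041 with SRPIN340, nascent MDM4 ranged from -0.068 to 0.20 with SRPIN340, nascent CDKN1A ranged from -0.26 to 0.057 with THZ531, nascent MDM2 ranged from -0.15 to 0.027 with THZ531, nascent MDM4 ranged from -0.063 to 0.16 with THZ531, total MDM2 ranged from -0.10 to 0.039 with SRPIN340, total MDM4 ranged from -0.15 to 0.029 with SRPIN340 and total MDM2 ranged from -0.10 to 0.079 with THZ531. With 2 libraries a group and 1 read worth 0.634 to 0.989 T>C CPM, small nascent changes of genes with few T>C reads were not detectable.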
